A study of Homo sapiens with 11 samples.

Results

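The genes that make cholesterol and fatty acids were followed in HEK293T, an immortal cell line of human embryonic kidney that expresses the SV40 large T antigen, after treatment with the compound A8, with or without ISRIB. The members are 32 listed gene symbols of a count table with 27671 genes: 18 of mevalonate and cholesterol synthesis, 6 of sterol regulation and 8 of fatty acid synthesis. All 32 passed the filter on low counts that left 15591 genes for testing. Polyadenylated RNA was measured in 3 libraries of cells given A8 at 10 µM, 3 given A8 with ISRIB, 2 given ISRIB with vehicle, and 3 given the vehicle DMSO alone. ISRIB stabilises the translation initiation factor eIF2B and so blunts the integrated stress response, the pathway to which the series' title links A8 by way of RIG-I. The series calls its replicates biological. The titles give 8 h of treatment and the treatment protocol 4 h, the dose of ISRIB is not given in the sources used here, and a further ISRIB library was excluded by the submitters for quality.

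Libraries held 34072107 to 35318111 counts each, and no library stood as a copy of another. The cells carried the transcripts listed as known from HEK293T at unequal levels. VIM (an intermediate filament) stood at 630.3 to 755 CPM (counts scaled to equal library totals) over the 11 libraries. The neurofilament NEFL stood at 63.5 to 76.7 CPM, NEFM at 59.8 to 74.3 CPM and CDH2 at 76.1 to 93.2 CPM. PAX2 and LHX1 of the same list were low, with 34 to 75 counts and 51 to 116 counts. The blood, endothelial, squamous, fat and red cell markers PTPRC, PECAM1, KRT5, ADIPOQ and HBB had 0 counts in every library. PLIN1, a further fat cell marker, had 10 to 25 counts (0.284 to 0.697 CPM) and the liver marker ALB 0 to 8 counts. The summed level of the markers of other cell types was 16.1 to 18.2 CPM with A8, 17.6 to 19.8 CPM with A8 and ISRIB, 17.8 to 18.6 CPM with ISRIB alone and 18.6 to 21.7 CPM with DMSO. Nearly all of that sum was COL1A1, a collagen, at 15.7 to 21.2 CPM. The sum was lower with A8 than with DMSO in every library, and its part in the results was not tested.

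Cholesterol is built from acetyl-CoA through mevalonate and the isoprenoids to squalene, lanosterol and then cholesterol, while fatty acids are built from the same acetyl-CoA by way of malonyl-CoA. Both sets of enzymes are targets of the SREBP transcription factors, which are made as membrane proteins of the endoplasmic reticulum. When sterols are low, SCAP carries SREBP to the Golgi, where proteases free its active part, and when sterols are high, INSIG proteins hold SCAP back. SREBP-2, the product of SREBF2, acts mainly on sterol genes, and SREBP-1c, a product of SREBF1, mainly on fatty acid genes. The counts are per gene symbol and do not tell SREBP-1c from other products of SREBF1.

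SREBPs bind sterol regulatory elements near the start of their target genes and act together with NF-Y, which binds CCAAT, and with Sp1, which binds GC boxes. Promoters of 28 of the 32 members were found in RefSeq (GRCh38.p14, 250 bases before to 50 bases after the start), without ACAT2, FDFT1, SQLE and FASN. CCAAT, read on either strand and so also as ATTGG, lay in the window of 21 of these 28 genes: 13 of 15 in sterol synthesis, 3 of 6 in sterol regulation and 5 of 7 in fatty acid synthesis. Among all 27305 genes with such a window 39.7% held it. The GC box GGGCGG, on either strand, lay in 27 of 28 members against 48.3% of all genes, and the E-box CACGTG lay in 4 of 28 members against 8.77%. The letters TCACNCCAC, a form of the sterol regulatory element, lay in 1 of 28 members, SREBF2, against 1.39% of all genes. The 27305 genes were not limited to those that passed the filter on low counts, as all members did, so the shares are not of like genes. A match is a run of letters and not a shown binding site.

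Promoters are shown for MVD and SREBF1, the members with the smallest p-values in the comparisons below, for NSDHL, which followed MVD in the comparison of A8 with ISRIB against A8, for SREBF2, the member with the sterol element, and for SCD as a gene of the fatty acid branch. Capitals mark CCAAT or ATTGG and, in SREBF2, TCACNCCAC. They run 5′ to 3′ on the strand of the gene, at chr16:88663042-88663341 (minus strand) for MVD, chrX:152830813-152831112 (plus) for NSDHL, chr17:17836937-17837236 (minus) for SREBF1, chr22:41832855-41833154 (plus) for SREBF2 and chr10:100346983-100347282 (plus) for SCD, all in GRCh38.p14. MVD holds 3 matches to CCAAT or ATTGG, NSDHL 5, SREBF1 0, SREBF2 1 and SCD 2, where CCAATTGG in NSDHL counts on both strands. For SREBF1 only 1 start was listed, and whether SREBP-1c is made from that start was not settled. Its count therefore holds for this window and not for other starts of the gene.
MVD: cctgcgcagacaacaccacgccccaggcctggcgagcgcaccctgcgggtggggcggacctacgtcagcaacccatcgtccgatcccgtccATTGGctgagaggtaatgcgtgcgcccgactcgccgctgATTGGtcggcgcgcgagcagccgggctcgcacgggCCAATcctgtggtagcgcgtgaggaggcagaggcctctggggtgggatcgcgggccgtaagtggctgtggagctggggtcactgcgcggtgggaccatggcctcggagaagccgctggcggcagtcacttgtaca
NSDHL: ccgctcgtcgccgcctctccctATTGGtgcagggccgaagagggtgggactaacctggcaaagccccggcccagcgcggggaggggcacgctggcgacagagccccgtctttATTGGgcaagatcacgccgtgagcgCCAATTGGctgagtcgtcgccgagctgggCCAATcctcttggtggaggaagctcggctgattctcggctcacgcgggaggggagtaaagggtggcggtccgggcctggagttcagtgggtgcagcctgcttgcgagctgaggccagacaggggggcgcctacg
SREBF1: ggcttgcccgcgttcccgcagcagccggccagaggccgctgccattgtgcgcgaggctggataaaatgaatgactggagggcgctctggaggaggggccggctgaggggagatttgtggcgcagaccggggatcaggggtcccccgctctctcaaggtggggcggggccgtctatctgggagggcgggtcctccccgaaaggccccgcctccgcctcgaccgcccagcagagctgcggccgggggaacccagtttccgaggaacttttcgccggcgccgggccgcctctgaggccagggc
SREBF2: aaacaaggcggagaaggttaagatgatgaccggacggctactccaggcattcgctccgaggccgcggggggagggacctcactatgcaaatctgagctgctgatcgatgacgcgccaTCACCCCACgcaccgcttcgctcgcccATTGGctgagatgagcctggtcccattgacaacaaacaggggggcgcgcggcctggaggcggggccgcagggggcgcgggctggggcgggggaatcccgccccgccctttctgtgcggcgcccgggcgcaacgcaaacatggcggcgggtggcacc
SCD: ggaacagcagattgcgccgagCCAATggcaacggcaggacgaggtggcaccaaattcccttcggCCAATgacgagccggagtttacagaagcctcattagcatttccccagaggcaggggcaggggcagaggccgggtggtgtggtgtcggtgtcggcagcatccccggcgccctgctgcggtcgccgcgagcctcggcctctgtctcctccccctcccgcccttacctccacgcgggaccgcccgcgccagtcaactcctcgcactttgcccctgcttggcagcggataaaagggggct

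In vehicle-treated cells both branches were well expressed. Levels between genes are given per kilobase (kb) of the longest annotated transcript. Fatty acid synthase, FASN, was the highest member at 231 CPM per kb and lay above 98.5% of the genes tested, followed by ACLY, which splits citrate into acetyl-CoA, at 170.4 CPM per kb. Of the sterol enzymes, the squalene synthase FDFT1 was highest at 131 CPM per kb. It was followed by FDPS, which makes farnesyl diphosphate, at 95.6 CPM per kb. DHCR7, the reductase of a last step to cholesterol, stood at 83.1 CPM per kb and the squalene epoxidase SQLE at 82.5 CPM per kb. These last levels lay close together, with overlapping libraries for DHCR7 and SQLE. HMGCS1, the entry to the mevalonate path, stood at 16.7 CPM per kb, and the lanosterol synthase LSS at 13.7 CPM per kb.

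Of the regulators, SREBF2 stood at 73.5 CPM per kb and the SREBP escort SCAP at 56.0 CPM per kb, against 11.05 CPM per kb for SREBF1. INSIG1 stood at 18.6 CPM per kb. Its relative INSIG2, at 0.583 CPM per kb, and the sterol carrier STARD4, at 0.396 CPM per kb, were the lowest of the 32. The fatty acid elongase ELOVL6, at 1.57 CPM per kb, was the lowest of the fatty acid branch. The median SD within groups was 0.0921 on the log2 scale over the 32 members and 0.141 over all genes tested, which were not matched to the members by level.

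**Figure D1:**
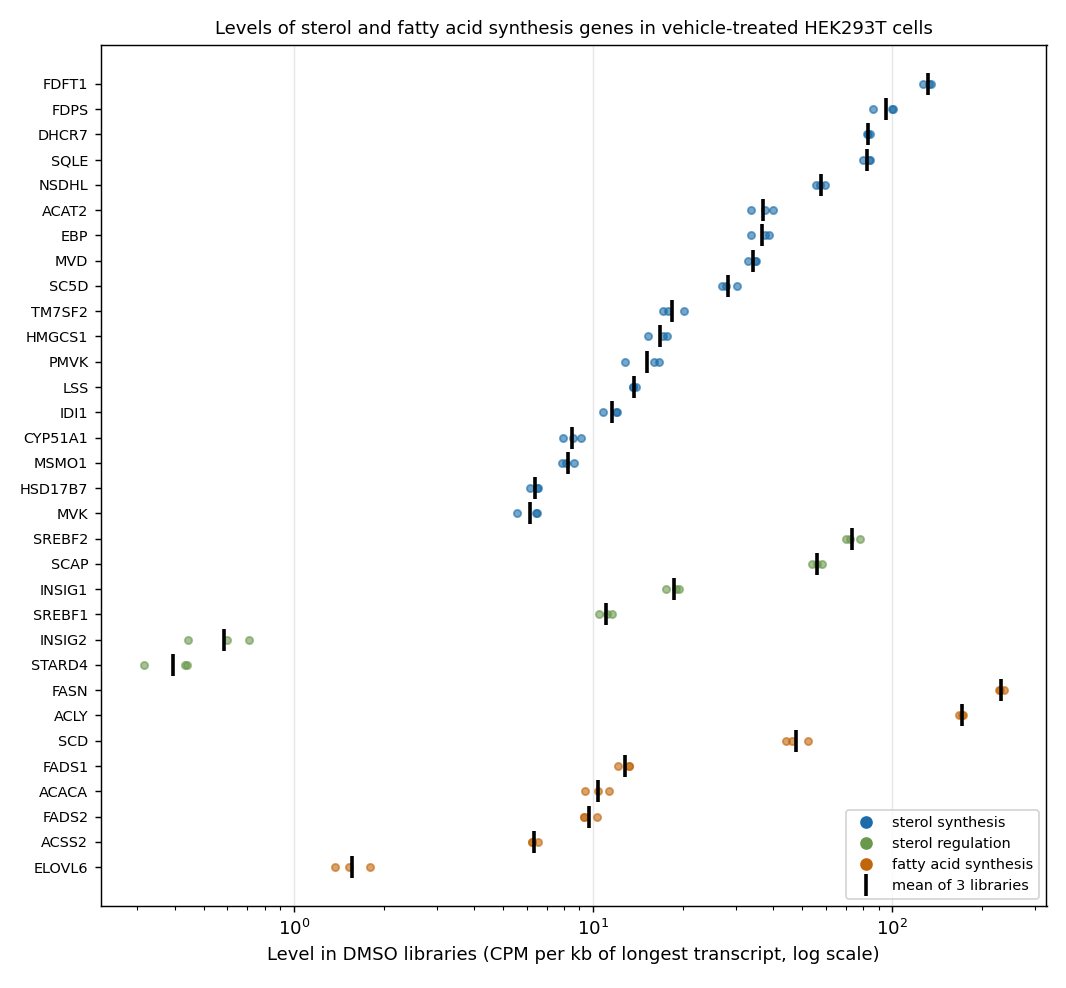
Level of each of the 32 members in the DMSO libraries, in CPM per kb of the longest transcript on a log axis, with 1 point per library (n = 3) and a bar at the mean, coloured by branch. FASN and ACLY lead the fatty acid branch and FDFT1 the sterol branch, while INSIG2 and STARD4 lie below 1 CPM per kb.

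The first comparison asked what A8 alone did to these genes. No member was called at an adjusted p under 0.05 (edgeR quasi-likelihood test, Benjamini-Hochberg adjustment over all genes tested), in a comparison that called 0.141% of all genes (22 of 15591). In sterol synthesis the log2 fold change, A8 over DMSO, was below 0 for 17 of 18 genes, with a median of −0.13. Among all genes 48.2% were below 0, with a median of 0.01. Genes of a branch share regulators and are not replicates, so a count of them does not test the branch. In fatty acid synthesis 3 of 8 were below 0 with a median of 0.01, and in sterol regulation 3 of 6 with a median of 0.01. At an unadjusted p under 0.05, 5 members were lower and 0 higher, all 5 of sterol synthesis (MVD, LSS, DHCR7, NSDHL and EBP), against 5.34% of all genes lower and 4.9% higher. In bulk RNA, fewer cells of a kind and less RNA per cell cannot be told apart, and CPM give a gene's share of each library and not an amount per cell.

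Averaged over the 18 sterol synthesis genes on the log2 CPM scale, the A8 libraries lay at −0.15, −0.12 and −0.06 relative to the DMSO mean, and the DMSO libraries at 0.02, 0.03 and −0.04. All 3 A8 libraries were below all 3 DMSO libraries, and the nearest values of the groups were the −0.06 of an A8 library and the −0.04 of a DMSO library. The SD of the sterol average within groups was 0.0400, and the difference between groups was not tested. The fatty acid average lay at −0.04, 0.05 and −0.01 with A8 and at −0.05, 0.02 and 0.04 with DMSO, so the groups overlapped. The sterol minus fatty acid value was −0.11, −0.17 and −0.05 with A8 and 0.07, 0.01 and −0.08 with DMSO. These also overlapped, and the SD of this difference within groups was 0.0860. The difference between the branch medians was −0.14 for A8 against DMSO, between −0.17 and −0.10 when any 1 library was left out.

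**Figure D2:**
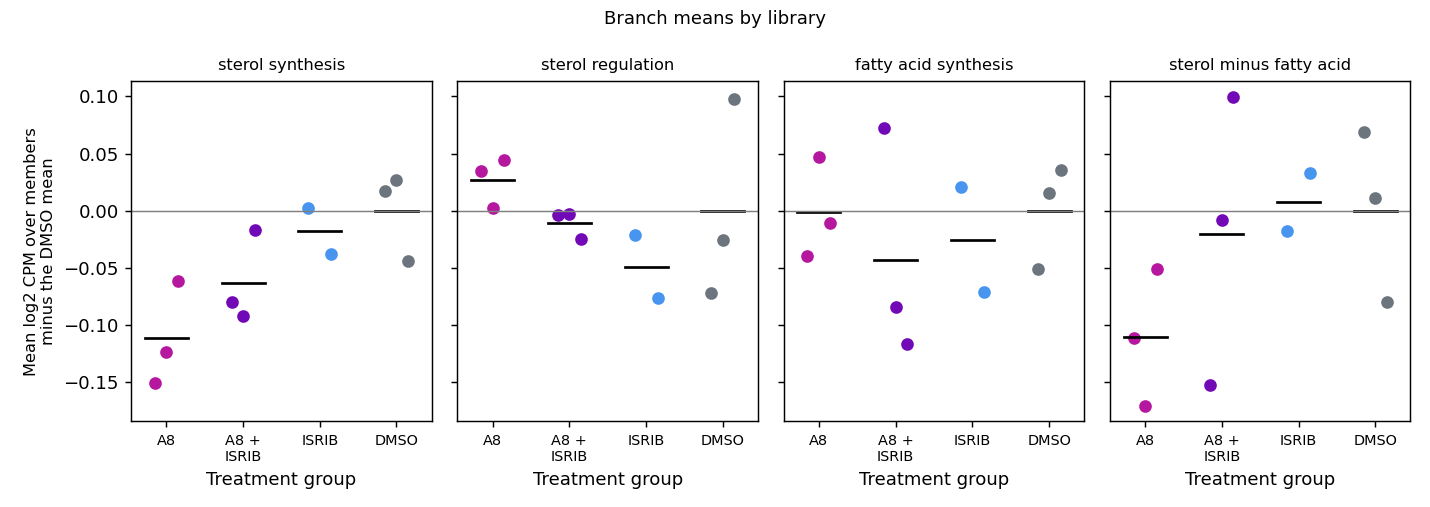
Mean log2 CPM over the members of each branch, minus the DMSO mean, for every library, with a line at the mean of each group (n = 3, 3, 2 and 3 from left to right), and the sterol minus fatty acid difference in the last panel. The A8 libraries lie below 0 in the sterol panel, at −0.15 to −0.06, and around 0 in the fatty acid panel, at −0.04 to 0.05.

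Along the mevalonate path the member with the smallest p was MVD, the decarboxylase that makes isopentenyl diphosphate. It had 71.5, 69.1 and 67.1 CPM with A8, 80.8, 81.3 and 85.1 CPM with A8 and ISRIB, 73.9 and 75.6 CPM with ISRIB alone, and 82.2, 77.8 and 82.1 CPM with DMSO. The A8 libraries were below all the others. Here and for the genes below, the share of all genes in which such a set of libraries lay apart from all the others was not counted. The log2 fold change for A8 against DMSO was −0.22 (SE 0.06, 95% interval −0.34 to −0.10), with an adjusted p of 0.197 in edgeR. DESeq2's Wald test called it, at −0.22 with an adjusted p of 0.0470 in a comparison where it called 0.849% of all genes. MVD transcripts are rich in G and C, at 63.7%, and across genes the fold change for A8 against DMSO moved with GC content (Spearman's rho −0.29). With a correction for GC content the value for MVD was −0.13, with an adjusted p of 0.519 in edgeR.

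HMGCS1, which makes HMG-CoA at the head of the path, had 44.7, 54.3 and 56.0 CPM with A8, 56.3, 53.4 and 49.6 CPM with A8 and ISRIB, 58.6 and 63.6 CPM with ISRIB alone, and 53.4, 62.1 and 60.1 CPM with DMSO. Its lowest value was in 1 A8 library, the groups overlapped, and the log2 fold change for A8 was −0.18 (SE 0.09, 95% interval −0.37 to 0.01). IDI1, the isopentenyl diphosphate isomerase, had 31.8, 34.4 and 39.2 CPM with A8, 40.8, 38.7 and 38.6 CPM with A8 and ISRIB, 39.0 and 40.4 CPM with ISRIB alone, and 40.6, 40.3 and 36.4 CPM with DMSO. It too was low in A8 libraries 1 and 2 but not in the third, at −0.15 (SE 0.08) for A8 against DMSO. ACAT2, the acetoacetyl-CoA thiolase, had 113, 117 and 121 CPM with A8, 109.6, 107 and 118 CPM with A8 and ISRIB, 116 and 127 CPM with ISRIB alone, and 119, 127 and 107 CPM with DMSO. Its groups overlapped throughout, with a log2 fold change of −0.01 for A8. The kinases MVK and PMVK lay between 22.3 and 26.8 CPM and between 16.4 and 20.9 CPM with any treatment, against 22.9 to 26.7 CPM and 16.4 to 21.3 CPM with DMSO.

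Past squalene, SQLE had 245, 234 and 266 CPM with A8, 252, 247 and 256 CPM with A8 and ISRIB, 259 and 254 CPM with ISRIB alone, and 236, 247 and 249 CPM with DMSO. It was the 1 sterol synthesis gene with a fold change above 0 for A8 against DMSO, at 0.02 (SE 0.06). LSS, which closes squalene epoxide to lanosterol, had 57.5, 60.8 and 61.4 CPM with A8, 62.3, 60.1 and 52.8 CPM with A8 and ISRIB, 62.1 and 55.8 CPM with ISRIB alone, and 68.6, 67.2 and 66.9 CPM with DMSO. Every treated library was below every DMSO library. The log2 fold change was −0.17 for A8 (adjusted p = 0.417), −0.21 for A8 with ISRIB (adjusted p = 0.494) and −0.20 for ISRIB alone (adjusted p = 0.48), each against DMSO in edgeR. LSS transcripts hold 58.3% GC, and with the GC correction the value for ISRIB alone was −0.11.

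FDPS, FDFT1 and SQLE lie between the isoprenoids and squalene epoxide. For A8 against DMSO the log2 fold change was −0.05 (SE 0.08) for FDPS and −0.10 (SE 0.06) for FDFT1, and the libraries of both overlapped. Of the enzymes that trim and reduce lanosterol, CYP51A1 was at −0.12 (SE 0.08), TM7SF2 at −0.12 (SE 0.11) and MSMO1 at −0.04 (SE 0.10), with overlapping libraries. EBP, the sterol isomerase, was at −0.17 (SE 0.08, edgeR adjusted p = 0.483), and its libraries overlapped as well.

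NSDHL, which removes the methyl groups of lanosterol's C-4 together with MSMO1, had 105, 98.2 and 96.4 CPM with A8, 108, 107 and 124 CPM with A8 and ISRIB, 118 and 113 CPM with ISRIB alone, and 115, 107 and 111 CPM with DMSO. The A8 libraries were below all the others, at −0.16 (SE 0.07, 95% interval −0.30 to −0.01) for A8 against DMSO, with an adjusted p of 0.439 in edgeR. SC5D, the lathosterol desaturase, had 61.3, 62.2 and 70.8 CPM with A8, 69.0, 63.3 and 60.6 CPM with A8 and ISRIB, 75.3 and 72.8 CPM with ISRIB alone, and 66.1, 68.1 and 74.3 CPM with DMSO. It was highest with ISRIB alone and overlapped between A8 and DMSO. DHCR7 was lower in each A8 library (193, 207 and 207 CPM) than in each DMSO library (219.7, 221 and 224 CPM), at −0.13 (SE 0.05, edgeR adjusted p = 0.426). In all, 6 members did not overlap between A8 and DMSO, all of them lower with A8: MVD, LSS, NSDHL, DHCR7, the keto-sterol reductase HSD17B7 and, from the fatty acid branch, FASN. Among all genes 8.13% were lower and 8.47% higher without overlap.

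**Figure D3:**
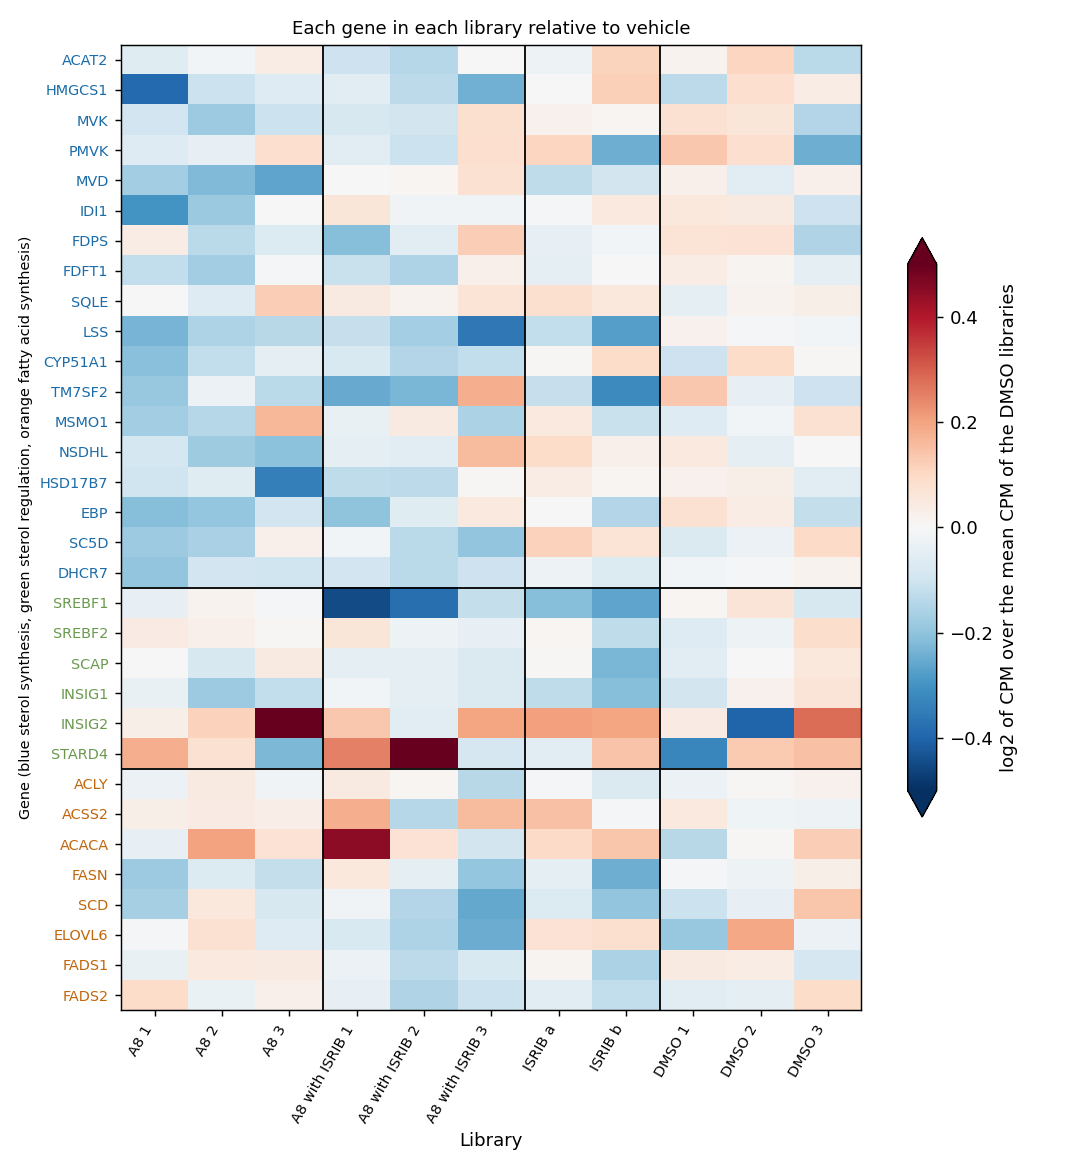
Each member (rows, by branch) in each library (columns), coloured by log2 of its CPM over the mean CPM of the DMSO libraries, with the scale ending at −0.5 and 0.5. In the sterol rows 16, 18 and 12 of 18 genes are below the DMSO mean in the 3 A8 libraries, and SREBF1 is lowest in 2 libraries of A8 with ISRIB.

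In fatty acid synthesis, FASN had 1742, 1885 and 1819 CPM with A8, 2049.7, 1910.3 and 1729 CPM with A8 and ISRIB, 1913 and 1665 CPM with ISRIB alone, and 1966, 1941 and 2017 CPM with DMSO. A8 libraries were below the DMSO libraries, with a log2 fold change of −0.12 (SE 0.07, 95% interval −0.27 to 0.03, edgeR adjusted p = 0.59). ACACA, the acetyl-CoA carboxylase that makes malonyl-CoA, had 101, 119 and 109 CPM with A8, 141, 109 and 97.0 CPM with A8 and ISRIB, 110.3 and 114 CPM with ISRIB alone, and 93.8, 104 and 113 CPM with DMSO. It spread widely within groups and was at 0.08 (SE 0.11) for A8 against DMSO.

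SCD, which puts the first double bond into stearate, had 228, 265 and 242 CPM with A8, 252, 231 and 214 CPM with A8 and ISRIB, 244 and 223 CPM with ISRIB alone, and 237, 248 and 281 CPM with DMSO. ACSS2, which makes acetyl-CoA from acetate, had 19.9, 20.1 and 20.0 CPM with A8, 22.1, 17.7 and 21.7 CPM with A8 and ISRIB, 21.6 and 19.4 CPM with ISRIB alone, and 20.1, 19.2 and 19.2 CPM with DMSO. The groups overlapped for both genes, with A8 values of −0.06 (SE 0.08) for SCD and 0.03 (SE 0.09) for ACSS2. FADS2, a desaturase of polyunsaturated fatty acids, had 52.4, 47.9 and 49.98 CPM with A8, 47.6, 44.2 and 45.5 CPM with A8 and ISRIB, 47.2 and 45.1 CPM with ISRIB alone, and 47.3, 47.5 and 52.3 CPM with DMSO. ELOVL6 had 10.1, 10.7 and 9.68 CPM with A8, 9.59, 9.08 and 8.52 CPM with A8 and ISRIB, 10.6 and 10.7 CPM with ISRIB alone, and 8.87, 11.6 and 9.91 CPM with DMSO. Both overlapped between A8 and DMSO, while for both the libraries of A8 with ISRIB were below those of A8 alone. ACLY and FADS1 were near 0 for A8 against DMSO as well, at −0.00 and 0.02.

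The size of the A8 effect was bounded for most members. The 95% interval lay within 1.5-fold either way for 31 of 32 members, INSIG2 being the exception, against 72.9% of all genes. In the other comparisons it lay within these bounds for 31 of 32 members for A8 with ISRIB against DMSO (73.3% of all genes), 31 for ISRIB against DMSO (69.9%), 30 for A8 with ISRIB against ISRIB (70.1%), 30 for A8 with ISRIB against A8 (73.9%) and 30 for the interaction (56.9%). INSIG2 and STARD4 were the members outside them. All genes tested were not matched to the members by level, so these shares are not of like genes.

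**Figure D4:**
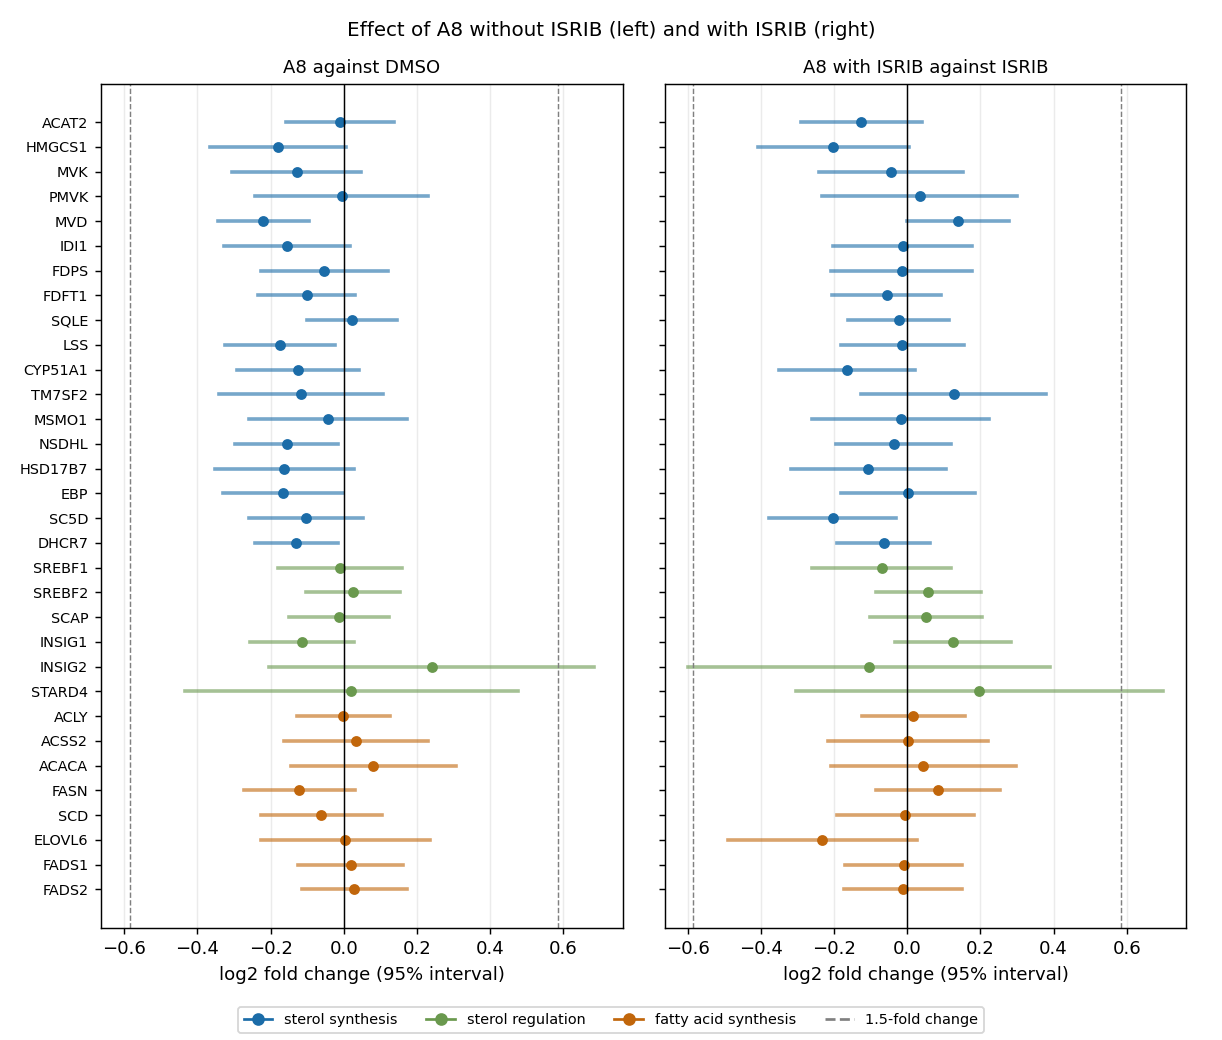
Log2 fold change (point) and 95% interval (bar) of each member for A8 against DMSO (left) and A8 with ISRIB against ISRIB (right), from the edgeR fit of all 11 libraries, with dashed lines at a 1.5-fold change. On the left 17 of 18 sterol synthesis genes lie below 0, and on the right 14 of 18 do.

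The regulators were compared in the same way. SREBF1 had 49.9, 52.0 and 51.2 CPM with A8, 37.7, 39.5 and 47.3 CPM with A8 and ISRIB, 44.4 and 42.8 CPM with ISRIB alone, and 51.7, 53.8 and 48.7 CPM with DMSO. All 5 libraries with ISRIB were below all 6 without it. This split was seen in the values and is not among the comparisons made, and the share of all genes that show it was not counted. Against DMSO the log2 fold change was −0.31 for A8 with ISRIB (SE 0.08, 95% interval −0.48 to −0.14, edgeR adjusted p = 0.37) and −0.24 for ISRIB alone (SE 0.09, 95% interval −0.43 to −0.05, edgeR adjusted p = 0.458). A8 with ISRIB against A8 gave −0.30 (SE 0.08, edgeR adjusted p = 0.403), while A8 against DMSO gave −0.01 (SE 0.08). SREBF1 transcripts hold 62.8% GC, and the fold change for ISRIB against DMSO moved with GC content across genes (Spearman's rho −0.47). With the GC correction the value was −0.10 for ISRIB alone, −0.27 for A8 with ISRIB against DMSO and −0.34 for A8 with ISRIB against A8 (edgeR adjusted p = 0.107). Without the third library of A8 with ISRIB, SREBF1 was called lower with A8 and ISRIB than with A8, at −0.40 with an edgeR adjusted p of 0.0267, in a fit that called 0.212% of all genes. The library left out had the highest SREBF1 of its group, at 47.3 CPM. SREBF1 was not called in this comparison when any other library was left out.

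SREBF2 had 432, 427 and 421 CPM with A8, 438, 412 and 408 CPM with A8 and ISRIB, 421 and 384 CPM with ISRIB alone, and 401, 412 and 445 CPM with DMSO. Its groups overlapped in every comparison, with log2 fold changes between −0.06 and 0.06. INSIG1, itself a target of SREBP, had 54.5, 49.3 and 51.5 CPM with A8, 55.4, 54.3 and 53.3 CPM with A8 and ISRIB, 51.3 and 48.3 CPM with ISRIB alone, and 52.6, 56.9 and 58.5 CPM with DMSO. It was lowest with ISRIB alone, at −0.17 against DMSO (SE 0.08, edgeR adjusted p = 0.502), and at −0.11 for A8 against DMSO (SE 0.07). SCAP lay at 233 to 254 CPM with A8, 234 to 239 CPM with A8 and ISRIB, 247 and 210.1 CPM with ISRIB alone, and 237 to 256 CPM with DMSO. The second ISRIB library was below all others for SCAP, SREBF2 and FASN.

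INSIG2 had 1.89, 2.01 and 2.68 CPM with A8, 2.04, 1.79 and 2.13 CPM with A8 and ISRIB, 2.14 and 2.13 CPM with ISRIB alone, and 1.91, 1.41 and 2.25 CPM with DMSO. STARD4, a target of SREBP-2 in mouse, had 2.07, 1.92 and 1.56 CPM with A8, 2.17, 2.58 and 1.72 CPM with A8 and ISRIB, 1.76 and 2.01 CPM with ISRIB alone, and 1.46, 2.00 and 2.02 CPM with DMSO. Both genes were low and overlapped throughout. Their A8 values of 0.24 (SE 0.21) for INSIG2 and 0.02 (SE 0.22) for STARD4 carried the widest intervals of the 32 members.

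**Figure D5:**
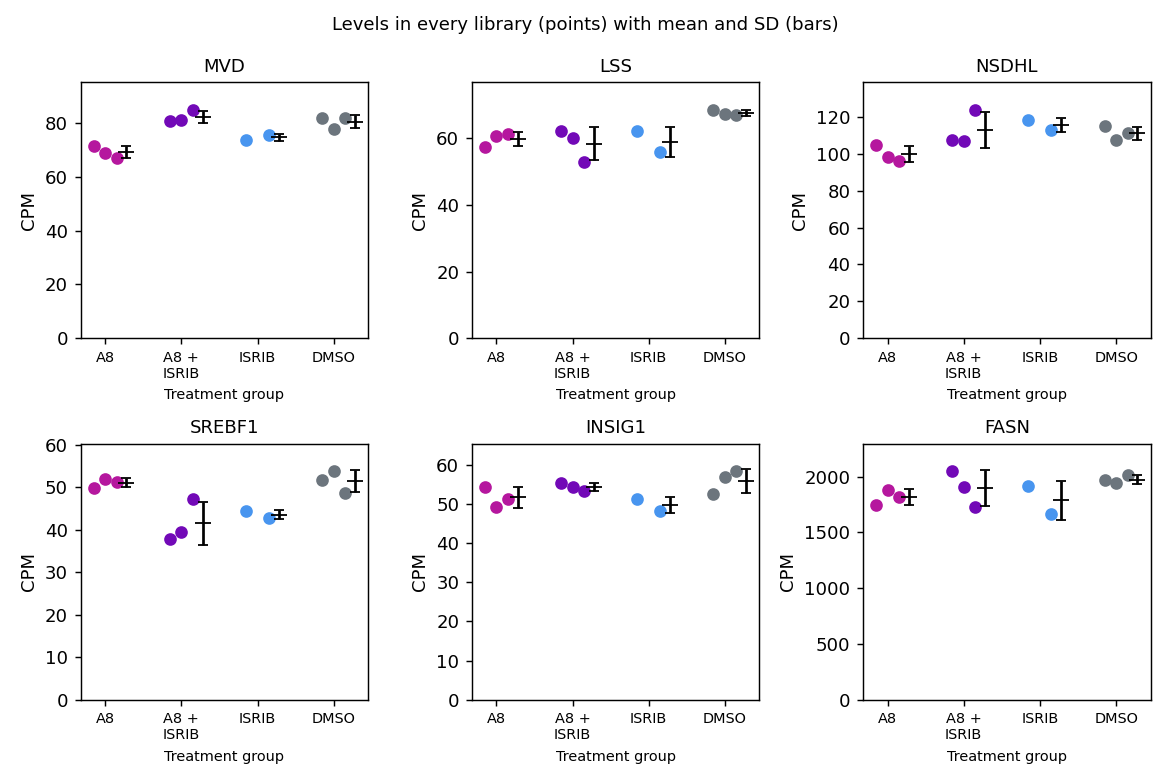
CPM of 6 members in every library (points), with the mean and SD beside each group (n = 3 for A8, A8 with ISRIB and DMSO, n = 2 for ISRIB). MVD averaged 69.2 CPM with A8 and 80.7 CPM with DMSO, and SREBF1 averaged 41.5 CPM with A8 and ISRIB and 43.6 CPM with ISRIB alone, against 51.4 CPM with DMSO.

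ISRIB alone was set against DMSO as the control for the combination. No member was called by edgeR, which called 0% of all genes, nor by DESeq2, which called 0.391%. The branches did not part: 9 of 18 sterol synthesis genes and 5 of 8 fatty acid genes were below 0, against 49.5% of all genes, with medians of −0.00 and −0.06 beside 0.00 for all genes. The fatty acid median was between −0.095 and 0.0015 when 1 library was left out, turning in sign without the second ISRIB library, and −0.0064 with the GC correction. The sterol minus fatty acid difference of 0.05 was between 0.0011 and 0.10 when 1 library was left out and −0.012 with the GC correction. At an unadjusted p under 0.05, 3 members were lower (SREBF1, LSS and INSIG1) and 0 higher, against 5.59% of all genes lower and 4% higher. Without overlap 8 members were lower and 1, SQLE, was higher, where 15.1% of all genes were lower and 13.9% higher.

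With A8 and ISRIB together, against DMSO, the sterol median was −0.07 and 14 of 18 genes were below 0, and the fatty acid median was −0.07 with 6 of 8 below 0, against 48.9% of all genes below 0. The branch medians differed by −0.00, and edgeR called 0 of 32 members and 0.0192% of all genes, as DESeq2 called 0 of 32 and 0.16%. When 1 library was left out, the sterol median was between −0.11 and −0.036, the fatty acid median between −0.11 and −0.036, and their difference between −0.065 and 0.076. By library the sterol average lay at −0.08, −0.09 and −0.02 with A8 and ISRIB, and the fatty acid average at 0.07, −0.08 and −0.12, both overlapping the DMSO libraries. Members with an unadjusted p under 0.05 were SREBF1 and LSS, both lower, against 4.04% of all genes lower and 3.66% higher. These 2 and DHCR7 were the 3 members lower without overlap, against 6.57% of all genes, and 0 were higher, against 5.79%.

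Whether A8 did anything in the presence of ISRIB was read from A8 with ISRIB against ISRIB. Of sterol synthesis genes 14 of 18 were below 0 with a median of −0.03, and of fatty acid genes 4 of 8 with a median of −0.00, against 49.5% of all genes below 0. Of the members edgeR called 0 of 32, and of all genes 0.0128%, while DESeq2 called 0 of 32 and 0.396%. SC5D was lower, at −0.20 (SE 0.08, edgeR adjusted p = 0.55), and MVD was higher, at 0.14 (SE 0.07, edgeR adjusted p = 0.597). These were the 2 members with an unadjusted p under 0.05, against 3.57% of all genes lower and 4.75% higher. Across genes the fold change of this comparison moved with GC content (Spearman's rho 0.32). SC5D transcripts hold 38.6% GC and MVD transcripts 63.7%. With the GC correction MVD stood at 0.04. Without overlap 6 members were lower and 2, MVD and INSIG1, were higher, against 12.3% and 12.8% of all genes.

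Adding ISRIB to A8 was read from A8 with ISRIB against A8, where edgeR called 0 of 32 members and 0.18% of all genes. MVD averaged 82.4 ± 2.4 CPM with A8 and ISRIB and 69.2 ± 2.2 CPM with A8 (SD, n = 3 each). Its log2 fold change was 0.25 (SE 0.06, 95% interval 0.13 to 0.37), with an edgeR adjusted p of 0.201. DESeq2 called MVD here, with an adjusted p of 0.0214, in a comparison where it called 0.355% of all genes. NSDHL averaged 113 ± 9.6 CPM with A8 and ISRIB and 99.7 ± 4.3 CPM with A8 (SD, n = 3 each), at 0.18 (SE 0.07, edgeR adjusted p = 0.686). MVD, NSDHL and MVK were higher without overlap, against 5.09% of all genes, and SREBF1, ELOVL6 and FADS2 lower, against 5.98%. Branch medians were 0.02 for sterol synthesis, with 5 of 18 genes below 0, and −0.05 for fatty acid synthesis, with 5 of 8 below 0, against 50.3% of all genes. When 1 library was left out, the sterol median was between 0.0028 (without A8 library 1) and 0.061 (without A8 library 3). The fatty acid median was then between −0.11 (without A8 with ISRIB library 1) and −0.0081 (without A8 library 2). At an unadjusted p under 0.05, MVD and NSDHL were higher and SREBF1 lower, against 2.73% of all genes higher and 3.18% lower. Comparisons that use the same A8 or DMSO libraries are not independent of one another.

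The interaction asked whether the effect of A8 differed with ISRIB, as the A8 effect with ISRIB minus that without it. Of the members 0 of 32 were called by edgeR, which called 0.0257% of all genes. The largest difference with an interval clear of 0 was that of MVD, at 0.36 (SE 0.09, 95% interval 0.17 to 0.55), with an edgeR adjusted p of 0.319. DESeq2 called it with an adjusted p of 0.0344, among 0.335% of all genes, and the GC correction brought it to 0.17. INSIG1 followed at 0.24 (SE 0.10, edgeR adjusted p = 0.55). The interaction median was 0.05 for sterol synthesis and −0.03 for fatty acid synthesis, beside −0.01 for all genes. Below 0 were 5 of 18 sterol synthesis genes and 5 of 8 fatty acid genes, against 51.8% of all genes. At an unadjusted p under 0.05, these 2 members were higher and 0 lower, against 5.04% of all genes higher and 3.44% lower.

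The authors' deposited tables, which compare each treatment with DMSO, hold all 32 members. Of the 32 members, 0 had in the authors' deposited tables an adjusted p under 0.05, where 0.475% of genes had one for A8, 0.0499% for A8 with ISRIB and 0.0499% for ISRIB. The smallest member value in the authors' deposited tables was that of SREBF1 for A8 with ISRIB, an adjusted p of 0.0992 at a log2 fold change of −0.31. MVD had an adjusted p of 0.632 for A8 in the authors' deposited table. Member fold changes in the authors' deposited tables differed from the edgeR values by at most 0.00208 on the log2 scale.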

How the data were processed

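RNA of HEK293T cells was selected for poly(A), made into strand-specific libraries and sequenced on a DNBSEQ instrument, per the labels' protocols. Whole-number counts of 27671 gene symbols in 11 libraries were deposited. GRCh37, DESeq and DESeq2 are named in the submitters' processing notes, and no aligner or counting program is given in the sources used here. In addition the authors deposited 3 results tables. They hold, per the file headers, base means (normalized counts, a signal), log2 fold changes with standard errors, Wald statistics (a score), p-values and adjusted p-values. The ISRIB columns carry other numbers than the titles, so they were given to the group only, as a and b.

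The 32 members and the further gene lists were chosen with earlier results of these data known, so no list was tested as a set. The deposited counts were tested with edgeR 4.0.16 (limma 3.58.1, R 4.3.3). After filterByExpr 15591 genes remained. Libraries were TMM-scaled, and 1 quasi-likelihood fit of group means held all 11 of them. P-values were adjusted by Benjamini-Hochberg across the genes tested, with calls under 0.05. The standard error (SE) came from the F statistic, and 95% intervals from the t distribution. Levels are TMM-scaled CPM, and branch averages use log2 CPM with a prior count of 2. Replicates differed by more than sampling noise (chi-square per degree of freedom 7.21 to 36.1). The script was tested on simulated data.

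GC content of the longest GENCODE 29 transcript was found for 92.2% of the genes tested and all 32 members (21762 of 27671 symbols matched directly, 1001 by an older symbol), and its correction subtracted a lowess curve (span 0.3) per library. Other alternatives were DESeq2 1.42.0 (shares of genes it called are of those given an adjusted p), its size factors, other filters, a fold threshold, a replicate block and leaving out each library. Values in every library are given for HMGCS1, IDI1, SQLE, LSS, INSIG1, SREBF1, SREBF2, STARD4, FASN, SCD, ACACA, FADS2 and ACSS2 and for the 2 members with the smallest p in each direction and comparison. Of the further lists, some of the genes with the smallest p in a comparison are named.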

Additional observations from a re-analysis of the deposited data

How the results depend on the processing

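The count of members called by edgeR was 0 in each of the 6 comparisons under every alternative tried with that tool, apart from the fit without A8 with ISRIB library 3. DESeq2's Wald test called 1 member, MVD, for A8 against DMSO, for A8 with ISRIB against A8 and for the interaction. Leaving out 1 library at a time gave 0 to 1 members called for A8 with ISRIB against A8. The same step moved the sterol synthesis median between −0.14 and −0.09 for A8 against DMSO, between −0.085 and −0.017 for A8 with ISRIB against ISRIB and between 0.024 and 0.094 for the interaction, and the fatty acid median between −0.010 and 0.021 for A8 against DMSO, between −0.056 and 0.052 for A8 with ISRIB against ISRIB and between −0.063 and 0.043 for the interaction. With the other alternatives, GC correction included, the sterol median for A8 against DMSO was −0.13 throughout. For the 19 members given by library, 1516 of 1520 values kept their side of the threshold and 4 passed it (3 for MVD with DESeq2, 1 for SREBF1). A change of sign was counted only where the main interval lay clear of 0 or the alternative was called, and 0 such values reversed. Other changes of sign were not counted. The cause of the differences between settings was not tested.

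With the replicate number as a block, 0 members were called in A8 against DMSO, A8 with ISRIB against DMSO and A8 with ISRIB against A8. Deviations of same-numbered libraries correlated at −0.50 to 0.42 between groups, and so showed no pairing by number. With so few libraries per group this check cannot exclude a pairing. Differently numbered libraries correlated about as strongly, from −0.46 (A8 library 2, A8 with ISRIB library 3) to 0.50 (A8 with ISRIB library 3, DMSO library 1). What such libraries share was not tested. No paired analysis was possible because the ISRIB columns carry no matching number, for comparisons with ISRIB alone and the interaction. For the interaction, a fit of only the groups compared is the same fit. INSIG2 and STARD4 are limited by their low counts.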

Other observations

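The pathways around these 2 branches were followed with 6 further lists of lipid genes, chosen with earlier results of these data known, of which no gene was called by edgeR in any of the 6 comparisons. At an unadjusted p under 0.05, the A8 against DMSO comparison held as higher 1 of 12 genes of the isoprenoid side branches, 1 of 13 of sterol transport and storage and 3 of 12 of fatty acid oxidation, against 4.9% of all genes higher. It held as lower 1 of 10 genes of SREBP processing, 1 of 19 of acyl-CoA and glycerolipid synthesis and 2 of 8 of the LXR receptors and their targets, against 5.34% of all genes lower. Median log2 fold changes for A8 against DMSO were 0.03 for SREBP processing, 0.04 for the isoprenoid branches, 0.03 for sterol transport, −0.06 for acyl-CoA and glycerolipid synthesis and 0.03 for fatty acid oxidation, beside 0.01 for all genes. The median of the 8 genes of the LXR list, which holds the receptors NR1H2 (0.06) and NR1H3 (−0.14) beside their targets, was −0.22. ABCA1, a cholesterol exporter named after its value was seen, was at −1.74 (SE 0.67, 95% interval −3.15 to −0.34, edgeR adjusted p = 0.393), and its libraries overlapped between A8 and DMSO. It did not have the smallest p of the list in this comparison. ABCA1 was at −1.19 for ISRIB against DMSO (SE 0.71) and at −0.65 for A8 with ISRIB against DMSO (SE 0.59). For A8 with ISRIB against ISRIB it was at 0.54 (SE 0.75).

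Among single genes, CPT1A, a carnitine palmitoyltransferase of the fatty acid oxidation list, was at 0.27 for A8 against DMSO (SE 0.08, edgeR adjusted p = 0.272). It was at 0.27 for A8 with ISRIB against DMSO (edgeR adjusted p = 0.438) and at 0.31 for A8 with ISRIB against ISRIB (SE 0.09, edgeR adjusted p = 0.398). GGPS1, which makes geranylgeranyl diphosphate from the mevalonate path, was at 0.23 for A8 against DMSO (SE 0.08, edgeR adjusted p = 0.326). GGPS1 was at 0.14 for ISRIB against DMSO (SE 0.09) and at 0.05 for A8 with ISRIB against ISRIB (SE 0.09). TRIM11, a ubiquitin ligase, was at −0.23 for A8 against DMSO (SE 0.07, edgeR adjusted p = 0.249). With ISRIB alone TRIM11 was at −0.18 against DMSO (SE 0.08), and for A8 with ISRIB against ISRIB at 0.03 (SE 0.08). The values with the smallest p in other comparisons were those of GRAMD1A, a carrier of cholesterol from the plasma membrane, at 0.29 for A8 with ISRIB against ISRIB (SE 0.07, edgeR adjusted p = 0.251), and of ACSL3, an acyl-CoA synthetase, at 0.28 for ISRIB against DMSO (SE 0.07, edgeR adjusted p = 0.342). None of these passed the threshold.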
